A study of Mus musculus with 4 samples.

Results

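The subject is 10 genes of the circadian clock, Rora, Nr1d1, Nr1d2, Bhlhe40, Bhlhe41, Dbp, Per1, Per2, Cry1 and Clock, out of 21887 protein-coding genes. Peaks of PHF2, a histone-binding protein, were taken for each gene over its RefSeq body and 5 kb on each side. The genes were chosen by their role in the clock and by the PHF2 peaks already found in these lists, so the counts of peaks at them describe the choice and carry no test. The libraries came from gastrocnemius, a calf muscle, of male C57BL/6 mice aged 4 weeks and kept under 12 hours of light and 12 of dark. All mice carried Phf2 flox/flox. The group called Ctrl was Acta1 Cre- and the group called KO was Acta1 Cre+. Acta1 encodes skeletal muscle actin, so this Cre acts in muscle fibres, and the other cell types of the tissue would keep Phf2. CUT&RUN, which cuts and releases DNA beside a bound antibody, was done in each genotype with a PHF2 antibody and with IgG as the background, 1 library each. The time of day of collection is not given in the sources used here.

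With 1 library a group, each comparison is between libraries, not genotypes, and no test across samples was possible. Deposited peaks numbered 1621 (Ctrl) and 161 (KO) with the PHF2 antibody, and 77 (Ctrl) and 152 (KO) with IgG. Read totals are unknown. Whole tags at each PHF2 peak summit could be solved from the authors' values and had a median of 15 in both PHF2 lists. These medians cover called peaks only and do not measure the depth of either library. Phf2 itself held 1 peak, in the KO IgG list, and 0 in the others, which does not check its deletion. As peaks, not expression, 5 of 10 muscle fibre markers had a Ctrl PHF2 peak by the same window, against 7.38% of all protein-coding genes. They were Ttn, Des, Myod1, Myf6 and Pvalb, while Acta1, Ckm, Myh1, Myh4 and Tnnt3 had no such peak. A Ctrl PHF2 peak was also held by 2 of 6 endothelial markers, 1 of 5 immune markers, 0 of 5 satellite cell markers and 0 of 5 fibro-adipogenic markers. No marker of any of these cell types, fibres included, had a KO PHF2 peak, against 0.713% of all protein-coding genes.

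The clock is a loop of transcription. CLOCK, paired with BMAL1, binds E-boxes and switches on its own repressors, among them the Per and Cry genes, whose proteins block that pair. BHLHE40 and BHLHE41 compete for E-boxes, while the REV-ERB receptors encoded by Nr1d1 and Nr1d2 repress at ROR elements, where RORA activates. DBP carries the rhythm to output genes through D-boxes. Rora, Dbp and Clock are taken as the activator arm and the other 7 genes as the repressor arm. PHF2 has a PHD finger, which binds a methyl mark of active promoters on histone H3, and belongs to the JmjC family of demethylases.

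Promoter windows, from 250 bases before to 50 bases after an annotated start, were taken from RefSeq's promoter table on GRCm38.p6, whose chromosomes are those of mm10. They matched 8 of the 10 genes, all but Bhlhe40 and Per2, with 11 starts. The first 4 shown are those of genes with a PHF2 peak at or beside the start, and the last 2 are those of repressor genes without one. Not shown are the windows of Dbp, which has such a peak, and of Nr1d2, a repressor gene without one. The further starts of Per1 and Clock are not shown either. Each reads 5′ to 3′ on the gene's strand. Capitals mark the E-box CACGTG or its relative CACGTT on either strand, except in Rora, where they mark the 40 bases that lie inside the Ctrl PHF2 peak. The window of Clock shown here holds neither motif, and all of it lies inside the KO PHF2 peak. The windows not shown, those of Dbp and Nr1d2 included, also hold neither motif.
Rora, chr9:68653536-68653835, plus strand: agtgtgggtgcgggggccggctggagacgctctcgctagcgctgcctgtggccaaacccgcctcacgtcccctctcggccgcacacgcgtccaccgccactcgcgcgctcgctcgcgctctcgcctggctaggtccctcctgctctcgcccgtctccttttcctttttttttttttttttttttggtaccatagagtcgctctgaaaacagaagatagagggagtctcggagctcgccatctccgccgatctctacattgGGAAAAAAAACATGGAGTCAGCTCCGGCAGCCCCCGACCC
Bhlhe41, chr6:145865371-145865670, minus strand: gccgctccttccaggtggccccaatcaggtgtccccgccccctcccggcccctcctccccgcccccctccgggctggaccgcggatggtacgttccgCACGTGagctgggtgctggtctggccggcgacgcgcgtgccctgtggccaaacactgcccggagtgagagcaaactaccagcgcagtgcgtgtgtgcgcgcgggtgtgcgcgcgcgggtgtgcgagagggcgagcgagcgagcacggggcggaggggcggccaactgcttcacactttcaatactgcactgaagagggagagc
Nr1d1, chr11:98775328-98775627, minus strand: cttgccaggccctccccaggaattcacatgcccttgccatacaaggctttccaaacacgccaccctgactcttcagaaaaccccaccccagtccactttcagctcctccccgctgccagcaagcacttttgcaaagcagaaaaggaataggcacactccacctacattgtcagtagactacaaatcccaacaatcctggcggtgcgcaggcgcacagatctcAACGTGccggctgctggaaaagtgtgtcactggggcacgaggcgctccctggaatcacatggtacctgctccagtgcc
Clock, chr5:76304743-76305042, minus strand: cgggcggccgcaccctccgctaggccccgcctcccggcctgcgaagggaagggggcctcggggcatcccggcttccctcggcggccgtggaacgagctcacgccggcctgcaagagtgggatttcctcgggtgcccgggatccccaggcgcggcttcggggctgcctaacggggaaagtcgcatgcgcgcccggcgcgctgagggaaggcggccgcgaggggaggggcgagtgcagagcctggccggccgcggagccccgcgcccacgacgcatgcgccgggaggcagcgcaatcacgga
Per1, chr11:69098699-69098998, plus strand: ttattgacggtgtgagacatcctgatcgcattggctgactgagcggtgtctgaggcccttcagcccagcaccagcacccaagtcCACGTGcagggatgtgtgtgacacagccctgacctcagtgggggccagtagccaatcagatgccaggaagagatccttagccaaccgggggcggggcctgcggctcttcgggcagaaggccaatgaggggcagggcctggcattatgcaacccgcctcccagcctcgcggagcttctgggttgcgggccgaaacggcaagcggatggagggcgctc
Cry1, chr10:85185005-85185304, minus strand: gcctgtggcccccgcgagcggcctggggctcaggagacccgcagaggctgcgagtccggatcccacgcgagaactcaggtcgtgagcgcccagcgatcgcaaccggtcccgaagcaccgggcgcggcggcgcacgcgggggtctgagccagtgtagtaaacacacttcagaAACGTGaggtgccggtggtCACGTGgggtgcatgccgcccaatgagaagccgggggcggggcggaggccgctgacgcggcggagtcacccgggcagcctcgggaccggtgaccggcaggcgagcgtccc

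In muscle that kept Phf2, 5 of the 10 clock genes held a Ctrl PHF2 peak, namely Rora, Dbp, Nr1d1, Bhlhe40 and Bhlhe41, against 7.38% of all protein-coding genes. They held 8 peaks in all, which were 3 at Bhlhe41, 2 at Rora and 1 at each of the others. None of these 5 genes held a KO PHF2 peak, and 6.80% of all genes had a Ctrl and no KO peak. Clock held the only KO PHF2 peak among the 10, against 0.713% of all protein-coding genes, and no Ctrl PHF2 peak. Nr1d2, Per1, Per2 and Cry1 held none in either library. No clock gene held an IgG peak, against 0.0640% of all genes in Ctrl IgG and 0.155% in KO IgG. All 9 PHF2 peaks overlapped the gene itself, and the nearest peak outside a window lay 12.3 kb from Per1.

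**Figure D1:**
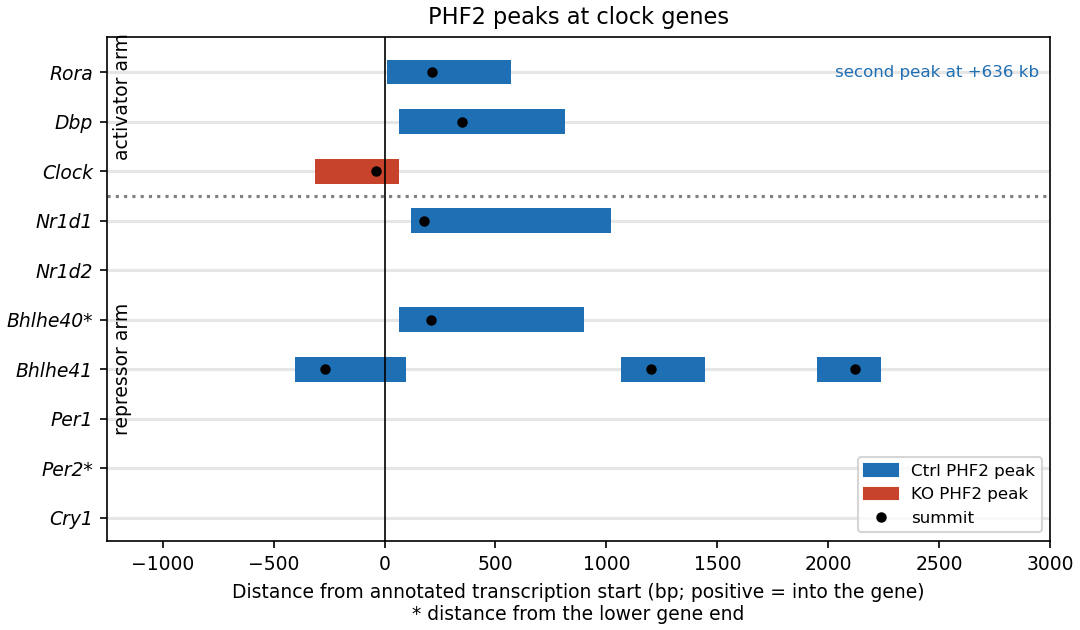
Position of each PHF2 peak at the 10 clock genes, as distance in bp from the nearest annotated start (from the lower gene end for genes marked with an asterisk); bars are peaks and dots are summits. Each of the 6 genes with a peak has a summit within 348 bp of that point, Bhlhe41 has 2 more Ctrl peaks inside the gene, and Clock has a KO peak only.

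Rora (Gene ID 19883, chromosome 9, 68653404 to 69388246) encodes the nuclear receptor that activates at ROR elements. It held the clock gene peak of highest fold enrichment, a ratio of the summit to the caller's local background. That peak ran from 68653796 to 68654358, a width of 563 bp, with its summit 212 bp into the gene. The authors' fold enrichment was 10.6, rank 65 of 1621, and the summit held 22 tags (exact Poisson 95% interval 13.8 to 33.3). The other Rora peak, at 69289831 to 69290899, was wider, at 1069 bp, and lay 636 kb into this gene of 735 kb. Its fold enrichment was 9.24 with 21 tags (13.0 to 32.1), so the tags at both Rora summits differed by less than counting error. By fold enrichment, 96.0% and 91.0% of the Ctrl PHF2 list stood below these peaks. Outside the clock genes, the peaks at gene ends nearest in -log10 p to the leading Rora peak (17.7), over the Ctrl PHF2 list of this 1 library, were at Irf2 (17.7), Lpp (17.6) and Slc38a2 (17.6).

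Dbp (Gene ID 13170, chromosome 7, 45705100 to 45710203) encodes the D-box activator. Its peak, 749 bp wide at 45705314 to 45706062, began 17 bases beyond the promoter window and had its summit 348 bp into the gene. Fold enrichment was 4.31, rank 1570 of 1621, while the 25 tags at the summit (16.2 to 36.9) ranked 80. The solved local background was 3 scaled tags, against a median of 0.584 over the list, and fold enrichment divides by that background. The peak also falls in the windows of 2 neighbours, Car11, a carbonic anhydrase-related gene with an end within 1 kb of the summit, and Sphk2, a sphingosine kinase gene, so it cannot be given to Dbp alone.

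Clock (Gene ID 12753, chromosome 5, 76209868 to 76305603) encodes the partner of BMAL1. Its peak was found in the KO PHF2 library, from 76304729 to 76305107. The summit lay 40 bp upstream of an annotated start (position -40) but 771 bp inside the upper end of the gene. The peak was among the weaker KO peaks, with a fold enrichment of 5.73 (rank 127 of 161), a width of 379 bp and 11 tags (5.49 to 19.7). The fewest tags at any KO PHF2 peak were 10. Clock was 1 of 30 genes, 0.137% of all, with a KO and no Ctrl PHF2 peak in this window. Over the 39 KO PHF2 peaks without a Ctrl overlap the median was 14 tags, above the value at Clock and inside its interval.

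In the repressor arm, Bhlhe41 (Gene ID 79362, chromosome 6, 145858243 to 145865420), which encodes an E-box repressor, held 3 Ctrl peaks within 2646 bp at the start end of the gene. Of the 1615 genes with a Ctrl PHF2 peak in this window, 42 had 3 or more. The outermost peak, at 145865324 to 145865826, covered the whole promoter window printed here, E-box included, with its summit upstream of the start (position -270). Its fold enrichment was 8.83 with 20 tags (12.2 to 30.9). The middle peak, at 145863976 to 145864356, had 6.54 with 15 tags (8.40 to 24.7), and the inner one, at 145863181 to 145863472, had 5.75 with 13 tags (6.92 to 22.2). Their summits lay 1201 and 2119 bp into the gene. Tags thus ran lower from the start inwards, but the 3 intervals overlap. The inner peak was 292 bp wide, the least width in the Ctrl PHF2 list, which it shared with many other peaks (tied at rank 1508 of 1621).

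Bhlhe40 (Gene ID 20893, chromosome 6, 108660629 to 108666925), the paralogue of Bhlhe41, held 1 Ctrl peak at 108660696 to 108661530, 835 bp wide, with the summit 210 bp from the lower end of the gene. It had the most tags of any clock gene summit, 28 (18.6 to 40.5), which ranked 41 of 1621. Its fold enrichment was 6.30, rank 863, over a local background of 2.04 scaled tags. As at Dbp, the place of the peak was far higher by tags than by fold enrichment.

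Nr1d1 (Gene ID 217166, chromosome 11, 98767932 to 98775377), which encodes REV-ERB alpha, held 1 Ctrl peak of 903 bp at 98774355 to 98775257. The peak ended 70 bases short of the promoter window, with the summit 178 bp into the gene and near the promoter edge of the peak. Fold enrichment was 6.34 and the summit held 18 tags (10.7 to 28.4). For this peak alone among the 9, another whole number, 14 tags, solved the authors' values within the tolerance of 0.005, less closely. Its paralogue Nr1d2, which encodes REV-ERB beta, held no peak, and the nearest Ctrl PHF2 peak was 92.6 kb away. The Per and Cry genes of this list, repressors of CLOCK and BMAL1, were without peaks too. The nearest Ctrl PHF2 peak lay 12.3 kb from Per1 with a fold enrichment of 5.38, 417 kb from Per2 and 214 kb from Cry1.

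**Figure D2:**
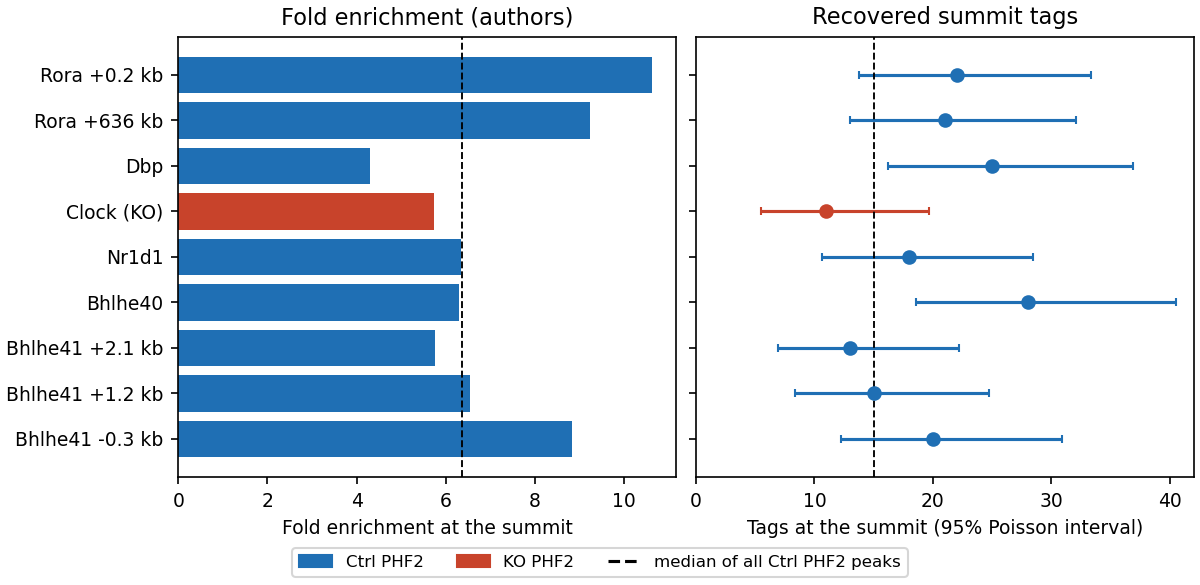
Authors' fold enrichment at the summit (left, bars from 0) and recovered summit tags with exact Poisson 95% intervals (right, points) for the 8 Ctrl and 1 KO PHF2 peaks at clock genes; labels give the summit's distance from the start where a gene has several peaks. Rora leads by fold enrichment (10.6) and Bhlhe40 by tags (28), and the dashed lines are the medians over all Ctrl PHF2 peaks, 6.37 and 15.

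Set side by side, the repressor arm had 3 of 7 genes with a Ctrl PHF2 peak and the activator arm 2 of 3. The share over all protein-coding genes was 7.38%. Of the 5 repressor peaks 3 were at Bhlhe41, and of the 3 activator peaks 2 were at Rora, so the medians below rest largely on these genes. The remaining activator peak, at Dbp, also falls in the windows of Car11 and Sphk2. The 5 repressor peaks had a median fold enrichment of 6.34 (5.75 to 8.83), beside 6.37 for all Ctrl PHF2 peaks. The 3 activator peaks had a median of 9.24 (4.31 to 10.6), with Rora at the top of the clock genes and Dbp at the bottom, so the ranges of the arms overlap. Median summit tags were 18 (13 to 28) in the repressor arm and 22 (21 to 25) in the activator arm, and median widths were 503 and 749 bp. Among paralogues of the repressor arm, Nr1d1 and not Nr1d2 had a peak, whereas Bhlhe40 and Bhlhe41 both did.

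Over the 8 Ctrl peaks at clock genes the median fold enrichment was 6.44, against 6.37 for the whole list, and the median width was 656 bp, against 505 bp. Median summit tags were 20.5, against 15, and 6 of the 8 peaks had more than 15, against 47.7% of the whole list. By fold enrichment 4 of the 8 exceeded the list's median. The clock gene peaks thus stood near the middle of the list by fold enrichment and mostly in its upper part by tags.

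**Figure D3:**
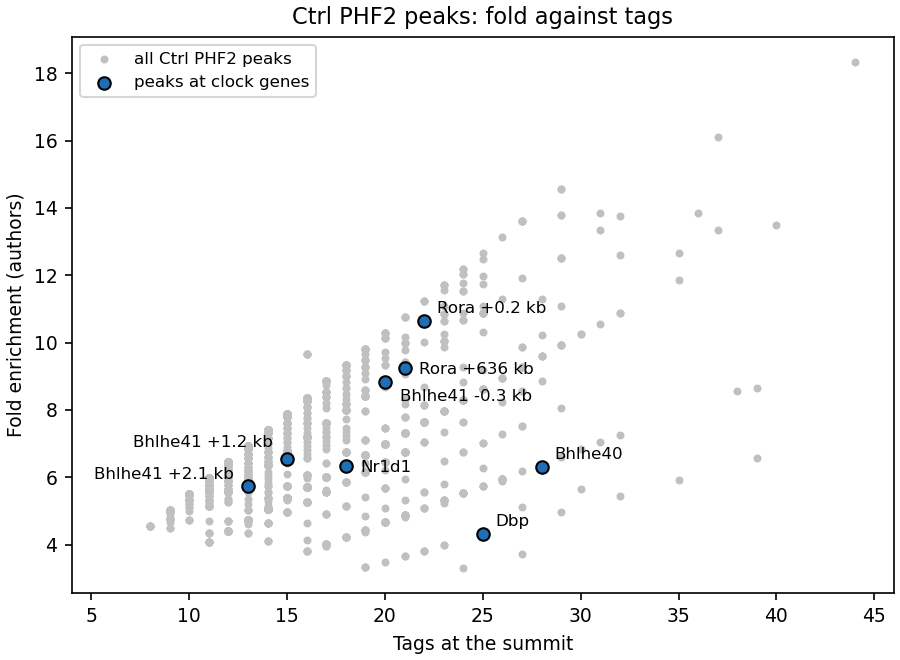
Authors' fold enrichment against recovered summit tags for all 1621 Ctrl PHF2 peaks (grey) and the 8 at clock genes (blue), with summit distances from the start where a gene has several peaks. Bhlhe40 (28 tags, fold enrichment 6.30) and Dbp (25 tags, 4.31) lie low in the cloud for their tags, and the leading Rora peak (22 tags, 10.6) lies high.

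None of the 8 Ctrl peaks at clock genes overlapped one from the KO list, a fact that was known when the genes were chosen and is given as a description. Over all 1621 Ctrl peaks the share was 7.03% (Wilson 95% interval 5.89 to 8.38). It was 7.14% (5.83 to 8.72) among the 1232 Ctrl peaks with 13 to 28 summit tags, the range of the clock gene peaks, and 4.47% (3.38 to 5.90) among the 1051 that also had widths in their range. Likewise 92.2% of all genes with a Ctrl PHF2 peak had no KO PHF2 peak in the same window, so these 5 clock genes are in the state of most genes on the list.

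Tags of the KO library at these sites were not measured, and a missing KO peak is not a tag count of 0. On the -log10 p scale the KO list began at 6.19 and the Ctrl list at 4.73. All 8 Ctrl peaks at clock genes exceeded 6.19, the lowest being 7.54 at the inner Bhlhe41 peak. Over all 1621 Ctrl peaks, 90.3% were at or above the start of the KO list. If the KO control had the local background solved for Ctrl, a KO summit would need 10 tags at the start of Rora, 12 at the inner Rora peak and at each Bhlhe41 peak, and 15 at Nr1d1 to reach 6.19. It would need 20 tags at Bhlhe40, and at Dbp 25, the number that the Ctrl summit held. No KO background was measured at these sites, and over the KO peaks its median was 0.380 scaled tags, so these numbers hold only under that assumption.

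Gene length bears on a window that takes in the whole gene. The share of all genes with a Ctrl PHF2 peak was 4.00% below 10 kb, 7.65% from 10 to 100 kb and 17.1% from 100 kb up. All 4 clock genes below 10 kb, Nr1d1, Bhlhe40, Bhlhe41 and Dbp, had a Ctrl peak. All 5 between 10 and 100 kb, Per1, Nr1d2, Per2, Cry1 and Clock, had none. The remaining gene, Rora, is in the longest class. For KO PHF2 peaks the shares over the same classes were 0.366%, 0.607% and 2.35%, and Clock lies in the class with 0.607%.

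**Figure D4:**
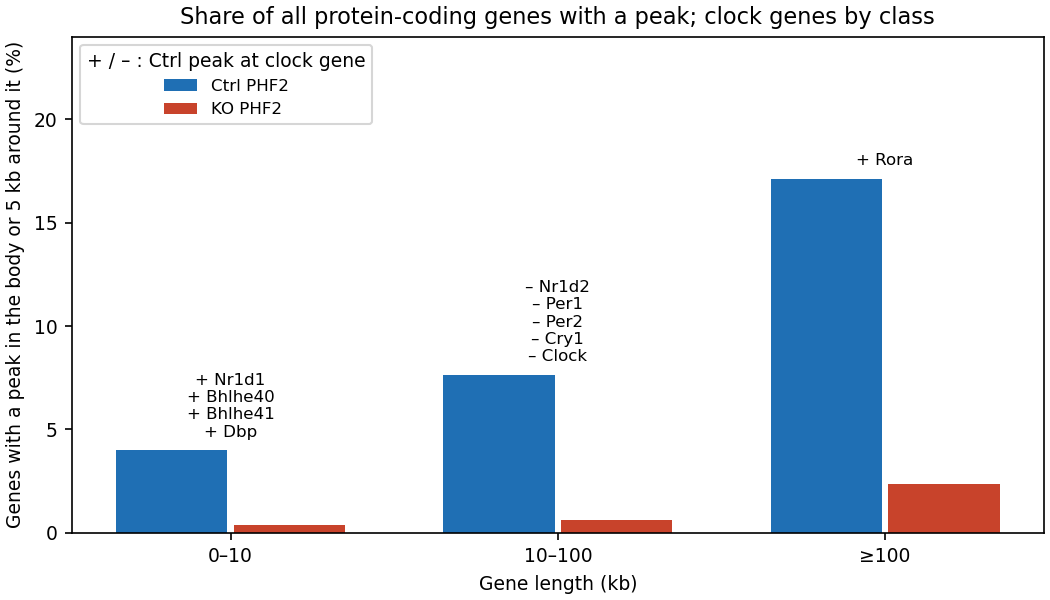
Share of all protein-coding genes with a Ctrl (blue) or KO (red) PHF2 peak in the gene body or 5 kb around it, by gene length in kb, with the clock genes of each class and a plus or minus for a Ctrl peak. The 4 clock genes below 10 kb have a Ctrl peak in a class where 4.00% of all genes do, and the 5 from 10 to 100 kb do not.

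Peak position was set against the whole list by the distance of each summit to the nearest annotated start. Starts were those of the promoter table, which lacks Bhlhe40 and Per2, so Bhlhe40 is left out of this comparison. A summit at a start missing from that table is not counted as near it, so the shares near a start may be too low. Of all Ctrl PHF2 summits, 53.1% (Wilson 50.6 to 55.5) lay within 500 bp of a start. Of the 1114 within 1 kb, 76.3% (73.7 to 78.7) lay downstream, with a median of 218 bp (quartiles 15.8 and 411). The nearest summits of Rora (212 bp), Nr1d1 (178 bp) and Dbp (348 bp) fall between those quartiles, and that of Bhlhe41 (-270 bp) falls outside them. KO PHF2 summits within 1 kb of a start had a median of 399 bp (quartiles 122 and 580). That of Clock, at -40 bp from its nearest start though inside the gene body, fell outside those quartiles.

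Promoters near Ctrl PHF2 summits were rich in CpG. The ratio of observed to expected CpG had a median of 0.853 (quartiles 0.722 and 0.971) over the 1095 promoter windows with a Ctrl summit within 500 bp of the start, against 0.384 (0.176 and 0.750) over all 32851 windows. Clock genes with such a summit ranged widely, from Rora (1.05) and Bhlhe41 (0.855) to Dbp (0.665) and Nr1d1 (0.404). Those without overlapped them, with Cry1 at 0.979, Nr1d2 at 0.806 and the pair of Per1 windows at 0.536 and 0.675. The Clock window inside the KO peak had 0.965, and the other Clock starts 1.09 and 0.558. Among the 8 genes with a window, the ratios of those with and without a Ctrl peak thus overlap.

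**Figure D5:**
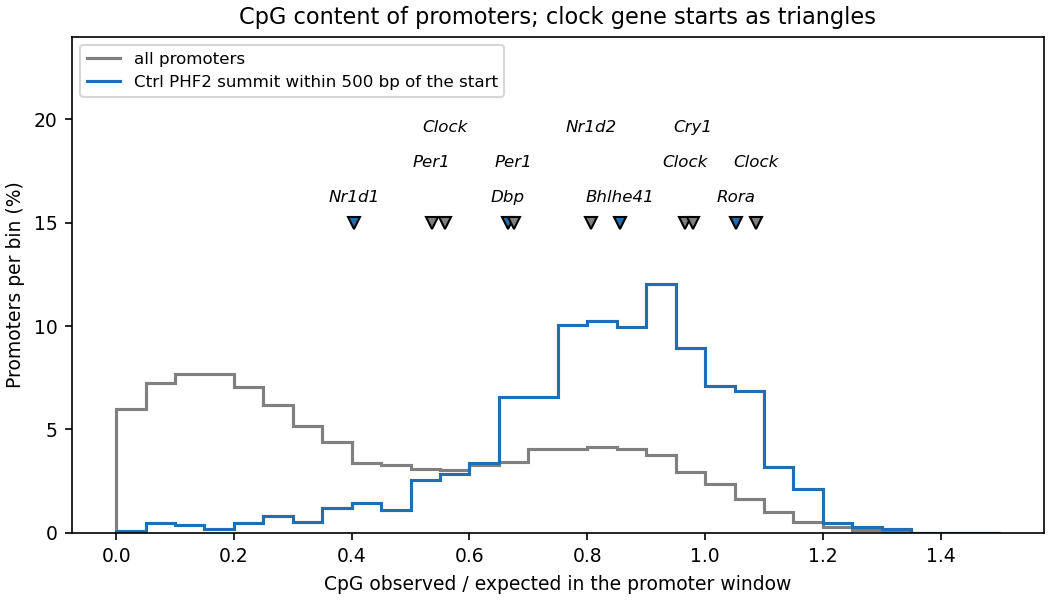
Distribution of the CpG observed to expected ratio over all promoter windows (grey line) and over those with a Ctrl PHF2 summit within 500 bp of the start (blue line), as percent of windows per bin, with triangles for the clock gene starts (blue where such a summit exists). Blue triangles run from Nr1d1 (0.404) to Rora (1.05) and interleave with grey ones.

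Clock motifs in the promoter windows were searched on both strands. The E-box CACGTG occurs in the windows of Bhlhe41 (first base at -153 from the start), Per1 (-166) and Cry1 (-60), and in 7.15% of all windows. Of the 1095 windows near a Ctrl summit 8.68% hold it. CACGTT occurs at Nr1d1 (-28) and Cry1 (-79) and in 4.68% of all windows. Of the 8 genes searched, which leave out Bhlhe40 and Per2, the E-box thus lies in 1 promoter under a Ctrl peak and in 2 without any peak. The core AGGTCA of ROR elements occurs at Nr1d2, Per1 and the start of Clock farthest inside the gene, outside the KO peak, in 16.3% of all windows and in 7.58% of those near a Ctrl summit. The longer ROR element, which is that core behind its AT-rich flank, and the D-box TTANGTAA occur in none of the 11 windows, and in 0.219% and 2.32% of all. The cAMP element TGACGTCA (1.79% of all) is also in none of them, and its part TGACG, in 20.8% of all and 33.8% near a Ctrl summit, occurs at both Per1 starts and at Cry1. These matches are letters in a window of 300 bases, not measured binding.

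Of 27 further clock genes (partners, kinases, ubiquitin ligases, cofactors and output factors of the loop), 3 or 11.1% held a Ctrl PHF2 peak, against 7.38% of all protein-coding genes, and 1 or 3.70% held a KO PHF2 peak, against 0.713%. These shares rest on 3 genes and 1 gene and are given as counts only. Nfil3, a repressor at D-boxes, had a Ctrl peak with a fold enrichment of 5.73 and 15 tags (8.40 to 24.7), 443 bp into the gene. Prkaa2, a catalytic subunit gene of AMP-activated kinase, had 4.66 with 20 tags (12.2 to 30.9), and Ncor1, the corepressor of REV-ERB receptors, had 5.05 with 14 tags (7.65 to 23.5). All 3 stood below the list's median fold enrichment of 6.37. The KO peak was at Fbxw11, a ubiquitin ligase gene that acts on PER proteins, with a fold enrichment of 6.19 and 12 tags (6.20 to 21.0), 122 bp into the gene. Like Clock, Fbxw11 had no Ctrl PHF2 peak. The BMAL1 gene Arntl, Npas2, Per3 and Cry2 were among the 23 with no PHF2 peak in either library.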

How the data were processed

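CUT&RUN peak lists of 4 libraries, 1 a group, were used, grouped by title. The authors aligned with Bowtie2 to mm10 and called peaks with MACS2, per the submitters' processing notes. Versions, settings and the control library: not given in the sources used here. The authors' deposited lists have the narrowPeak layout: a score (10 times the -log10 q, not used), fold enrichment as a ratio, -log10 p and -log10 q, and the summit. Starts were written 1-based. The members, arms and gene lists were chosen with earlier results of these data known.

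An overlap was at least 1 bp, with genes on the autosomes, X and Y from RefSeq. Summit tags were solved from fold enrichment, taken as (pileup + 1) / (background + 1), and a Poisson p. The pileup was whole tags times 0.649 in Ctrl and 0.609 in KO for 100% of peaks, within 0.005. In Ctrl 87 peaks, and in KO 3, had a further whole solution, and the closest was kept. On 274 simulated peaks, made with the same formula, 100% of tags were recovered. That checks the solving and cannot check the formula against the authors' settings. Tags are those at the summit, PCR copies may be among them, and their intervals cover counting error only. Wilson intervals on shares of peaks take the peaks of 1 library as independent and do not cover the spread between libraries. All 10 members were named, and further clock genes were named where they held a PHF2 peak, with Arntl, Npas2, Per3 and Cry2 added after their values were seen. The length classes were set after seeing the data. Alternatives were other windows, the summit alone, a stricter q, merged peaks and other overlap rules. Scripts ran under Python 3.11.15 with pandas 2.3.3, SciPy 1.17.1, NumPy 2.4.6 and, for plots, matplotlib 3.10.9.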

Additional observations from a re-analysis of the deposited data

How the results depend on the processing

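No paired analysis was possible because there was 1 library per group. For the same reason none was left out in turn. Over the main counts and medians, 35 alternatives stayed within 1.5 times the reported value and 3 moved. All 3 came from keeping peaks with a -log10 q of at least 5. That limit left 5 Ctrl PHF2 peaks at clock genes in place of 8, with Bhlhe41 keeping 1 of its 3 and Dbp none, so that the activator arm had 1 gene with a Ctrl peak, Rora. It also left 0 clock genes with a KO PHF2 peak, since the -log10 q of the Clock peak was 2.26. A window of 20 kb added the peak 12.3 kb from Per1, which made 6 clock genes with a Ctrl peak. Merging peaks within 1 kb joined the 3 Bhlhe41 peaks and left 6. The count of Ctrl peaks at clock genes with a KO peak was 0 under each alternative run. Those runs are counted among the 35, although no ratio to 0 can be formed and the 0 was known beforehand. The fewest summit tags were 8 in the Ctrl and 10 in the KO PHF2 list, and read depth is unknown.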
